A study of Homo sapiens with 6 samples.

Results

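Genes of the mitochondrial outer membrane and of apoptosis were examined in Calu-6, an established human cell line of non-small cell lung carcinoma. The set held 10 genes that were selected by name: the BCL-2 family genes BAX, BCL2L1 and MCL1, the mitophagy receptor genes BNIP3 and BNIP3L, the genes DIABLO and HTRA2 for factors released from mitochondria, and the porin genes VDAC1, VDAC2 and VDAC3. Rows of the count table with these gene names were summed per gene. Of the 10072 genes and 21472 transcript models in the table, 9 of the 10 members had rows, with 32 models between them, and BNIP3 had none.

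The labels give the cells a wild-type genotype, whereas the methods of the study describe a blasticidin-selected population that stably carried an empty Flag-V5 vector, in both groups, and the count columns carry the word Empty. Both groups received 10 nM of an siRNA for 48 h. The siControl group received a non-silencing siRNA, and the siDelta2-4 group an siRNA against the junction of exons 1 and 5 that marks the Delta 2-4 splice variant of TERT, the telomerase reverse transcriptase gene. Each group had 3 libraries of long cDNA reads. The comparison asked how the genes responded when this variant was targeted, in a study concerned with the resistance of cancer cells to death. The knockdown was transient and used 1 siRNA sequence, and TERT had 0 rows in the table, so the knockdown itself was not analysed here.

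The outer membrane of the mitochondrion controls a main branch of programmed cell death. BAX, once activated, forms pores in this membrane, and its relatives BCL-XL (from BCL2L1) and MCL1 restrain it. Pores let cytochrome c, SMAC (from DIABLO) and HTRA2 escape into the cytosol, where cytochrome c builds the apoptosome and the other released proteins bind inhibitors of caspases. The VDAC porins carry metabolites and ions through the same membrane, and BNIP3 and BNIP3L (also called NIX) mark mitochondria for removal by autophagy.

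Total counts per library were 1037468 to 1106413 in siControl and 1070009 to 1309241 in siDelta2-4. Within a group the libraries are called high, mid and low after their totals (siControl-high, siDelta2-4-low and so on), and values are given in the order siControl-high, -mid and -low, then siDelta2-4-low, -mid and -high. Levels are given as CPM, the counts of a gene scaled to a common library total, with a TMM factor per library that corrects for differences in RNA composition. siControl-low stood apart for these genes, since it was the highest of its group for 5 of the 6 members that could be tested, all but BAX, against 1507 of 3888 tested genes (38.8%). Results that rest on it are given with and without it. The library was singled out by the members' own values, so a fit without it is no separate evidence for a change in them. Every row of the table had at least 1 count in siDelta2-4, whereas 4526 models had none in siControl, so a gene counted only in siControl would not be listed. Of 6 epithelial markers 5 had counts, with KRT8 at 824 and KRT18 at 1124, while KRT19 had 1 and CDH1 had no row. VIM, a mesenchymal marker, had 987 counts, at 122 to 136 CPM in siControl and 153 to 174 CPM in siDelta2-4. Of 6 markers of other cells only CD68 had counts (12 in all), with a summed level of at most 2.53 CPM in any library. The study calls the libraries of a group biological replicates, while the labels did not name separate cultures, and the p-values measure the spread between these libraries.

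The members held 2168 counts in all, 0.032% of the table, and the porins held 1766 of them (81.5%). The 6 members with enough counts to pass the filter of the test were BAX, BNIP3L, DIABLO, VDAC1, VDAC2 and VDAC3. None of them was called as changed in edgeR's quasi-likelihood test at an adjusted p under 0.1, where 504 of 3888 genes over the whole table were called (13.0%), 272 higher in siDelta2-4 (7.00%) and 232 lower (5.97%). None had an unadjusted p under 0.05 either, compared with 900 of all tested genes. By direction 3 members were higher and 3 lower, and their median log2 fold change was -0.027, beside 0.027 over all tested genes. The members' median was 0.139 without siControl-low (0.034 over all tested genes), -0.126 without siControl-high, -0.121 without siControl-mid, and -0.188 with the trend on transcript length removed (-0.009 over all tested genes). The median absolute log2 fold change was 0.252 over the members and 0.214 over all tested genes. The DESeq2 Wald test also called none of them, though it gave an adjusted p only for VDAC1 (0.789) and VDAC2 (0.689). In bulk RNA such as this, fewer cells and less RNA per cell cannot be told apart.

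Per kilobase of counted transcript, the order of the members in siControl was VDAC2, VDAC1, VDAC3, DIABLO, BAX and BNIP3L. The last places depend on the division by length. In CPM, BNIP3L (means of 18.4 in siControl and 14.3 in siDelta2-4) lay above BAX (12.4 and 8.83). Whether counts of these long reads grow with transcript length was not tested, so the order per kilobase is no measure of molecule numbers. VDAC2 was at 88.2 ± 23.2 CPM per kb (SD, n = 3), with libraries from 70.1 to 114. VDAC1 was at 45.5 ± 11.2 CPM per kb, with libraries from 36.8 to 58.1. VDAC3 followed at 24.7 ± 3.18 and DIABLO at 20.4 ± 3.81 CPM per kb, and these neighbours overlapped between libraries in siControl, from 21.3 to 27.7 and from 17.4 to 24.7. BAX was at 14 ± 2.99 CPM per kb, with its top library level with the lowest DIABLO library (17.4 in both), and BNIP3L at 5.38 ± 0.864 CPM per kb. In siDelta2-4 the order was the same, with means of 99.6 ± 12.9 for VDAC2, 43.6 ± 4.46 for VDAC1, 31.2 ± 6.08 for VDAC3, 20.6 ± 4.24 for DIABLO, 9.92 ± 2.06 for BAX and 4.18 ± 0.979 for BNIP3L (CPM per kb, SD, n = 3). The lowest VDAC3 library there, at 27 CPM per kb, lay above the highest DIABLO library, at 23.5.

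**Figure D1:**
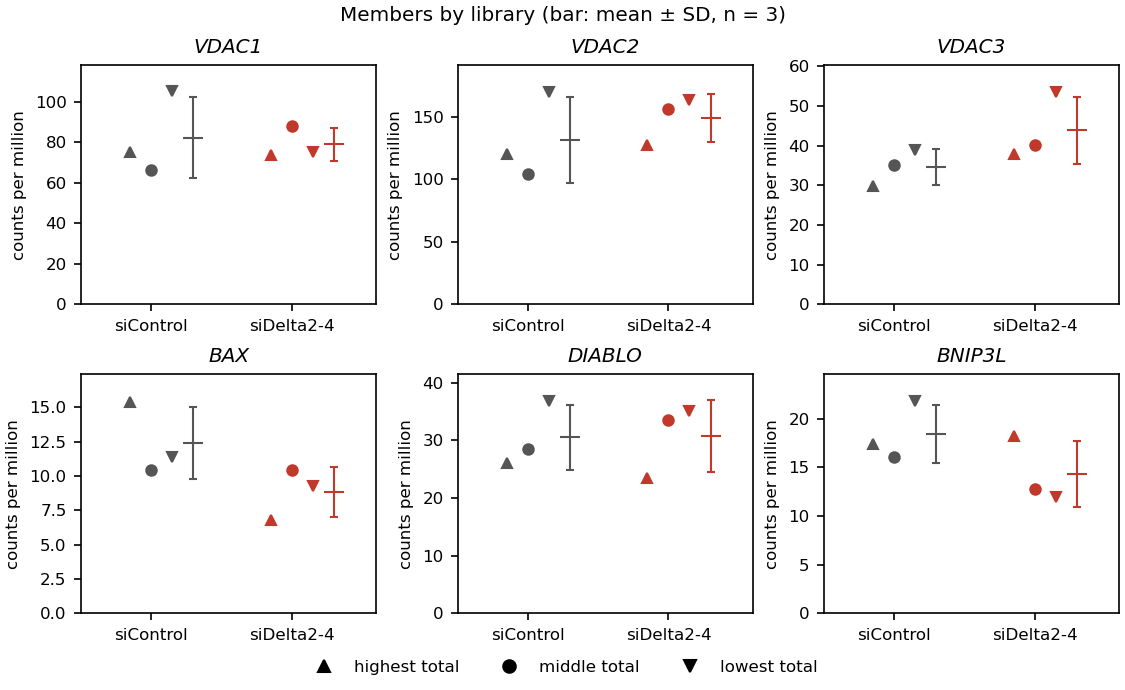
Level in CPM of the 6 tested members in each library, with siControl in grey and siDelta2-4 in red. Symbols mark the library by its total within the group, and the bar gives the mean ± SD (n = 3). siControl-low is the highest of its group in every panel but that of BAX, and the groups overlap in every panel but that of BAX, where the gap is 0.0316 CPM.

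The porins are a family of close relatives, so it mattered whether reads of one could be counted for another. The coding sequence of VDAC2 (882 bases) matched that of VDAC1 (849 bases) at 71.3% of aligned bases and that of VDAC3 (849 bases) at 71.6%, and VDAC1 matched VDAC3 at 67.1%. A processed copy of VDAC2, the pseudogene VDAC2P5 (ENSG00000172974.11, GRCh38 chromosome 2, 65205108 to 65205988, plus strand), was far closer, at 877 of 879 aligned bases (99.8%). The last 90 coding bases of VDAC2 before the stop codon (chr10:75229701-75230986, plus strand, across an exon junction) are shown with the same stretch of VDAC2P5 (chr2:65205898-65205987, plus strand) and of VDAC1 (chr5:133972774-133973791, minus strand), from GRCh38, to show how little separates VDAC2 from its copy. Capitals mark bases that differ from VDAC2.
VDAC2: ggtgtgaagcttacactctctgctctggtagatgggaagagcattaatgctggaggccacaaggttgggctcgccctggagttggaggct
VDAC2P5: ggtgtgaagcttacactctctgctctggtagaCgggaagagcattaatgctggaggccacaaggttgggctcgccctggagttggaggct
VDAC1: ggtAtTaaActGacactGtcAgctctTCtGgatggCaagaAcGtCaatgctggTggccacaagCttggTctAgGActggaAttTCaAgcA
Over these 90 bases VDAC2P5 differs from VDAC2 at 1 base and VDAC1 at 24.

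VDAC2 (ENSG00000165637.14, chromosome 10, 75210154 to 75231448, plus strand), the porin isoform known to hold the BCL-2 relative BAK at the outer membrane, was the most counted member, with 952 counts. Its siControl libraries held 120, 104 and 170 CPM, and its siDelta2-4 libraries 163, 156 and 127 CPM. All 3 siDelta2-4 libraries lay between the siControl extremes. The means were 132 ± 34.5 and 149 ± 19.3 CPM (SD, n = 3), and the log2 fold change was 0.17 ± 0.144 (SE), with a 95% interval of -0.12 to 0.47 (edgeR adjusted p = 0.502). Without siControl-low, the difference passed the threshold, with a log2 fold change of 0.38 (95% interval 0.127 to 0.638, edgeR adjusted p = 0.027). In that fit 1041 of 4098 genes were called (25.4%), and VDAC2 was the 1 member among them. The value was 0.09 without siControl-high (edgeR adjusted p = 0.824), 0.03 without siControl-mid (edgeR adjusted p = 0.96) and 0.02 with the trend on length removed (edgeR adjusted p = 0.943).

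VDAC2P5 had 54 counts, and given this identity the split of reads between it and VDAC2 is uncertain. Its counts were 11, 10 and 6 in siControl, then 12, 5 and 10 in siDelta2-4. Its share of the summed counts of VDAC2 and VDAC2P5 had a mean ± SD over 3 libraries of 6.57% ± 2.9 in siControl and 4.84% ± 2.06 in siDelta2-4 (p = 0.5 in a two-sided exact permutation test, in which 3 libraries against 3 allow no p under 0.1). Its own difference was -0.21 ± 0.406 on the log2 scale (SE, edgeR adjusted p = 0.813). The annotation also held 13 pseudogenes of VDAC1, 1 of VDAC3 and 44 of BNIP3, none with counts.

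VDAC1 (ENSG00000213585.11, chromosome 5, 133971871 to 134004975, minus strand), the porin best known as a docking site for hexokinase and for calcium transfer from the endoplasmic reticulum, had 547 counts. Its siControl libraries held 75.3, 66.5 and 105 CPM, and its siDelta2-4 libraries 74.9, 88.1 and 73.5 CPM. siControl-low was the highest of all 6. The means were 82.3 ± 20.2 and 78.8 ± 8.07 CPM (SD, n = 3). The difference was -0.06 ± 0.162 on the log2 scale (SE, 95% interval -0.39 to 0.27, edgeR adjusted p = 0.872). The interval allows a fold from 0.763 to 1.21. The sign of this small value turned without that library (0.14, edgeR adjusted p = 0.588) and with library totals as the only scaling (0.009, edgeR adjusted p = 0.988).

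VDAC3 (ENSG00000078668.14, chromosome 8, 42391624 to 42405937, plus strand), a porin isoform with many cysteines, had 267 counts and, with BAX, lay farthest from the control level relative to its error. It had 29.9, 35.1 and 38.8 CPM in siControl and 53.6, 40.1 and 37.9 CPM in siDelta2-4. Of the siDelta2-4 libraries 2 lay above every siControl library, and siDelta2-4-high lay below the top siControl value. The means were 34.6 ± 4.47 and 43.9 ± 8.53 CPM (SD, n = 3). The log2 fold change of 0.33 ± 0.201 (SE, 95% interval -0.08 to 0.74) did not pass the test (edgeR adjusted p = 0.336, the smallest among the members). It was 0.17 without siDelta2-4-low (edgeR adjusted p = 0.719) and 0.18 with the trend on length removed (edgeR adjusted p = 0.663). On annotated models alone it was 0.24 (edgeR adjusted p = 0.541).

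Taken as 1 pool, the porins held 225, 206 and 314 CPM in siControl and 291, 284 and 238 CPM in siDelta2-4, which overlapped between groups. Shares within the pool do not depend on the scaling of the libraries. VDAC1 made up 33.5%, 32.3% and 33.4% of porin counts in siControl and 25.7%, 31.0% and 30.9% in siDelta2-4. The groups did not overlap, at 33.1% ± 0.691 and 29.2% ± 3.02 (SD over 3 libraries, p = 0.1 in the exact permutation test, adjusted p = 0.375 over 15 shares). The difference was -3.86 points, and siDelta2-4-low lay farthest from siControl. No rate over the table was computed for shares within a pool. For CPM, groups that did not overlap were found for 1018 of 3888 tested genes (26.2%). The exact 95% binomial intervals of the single libraries overlapped, for example 27.4% to 39.9% for siControl-high and 25.8% to 36.3% for siDelta2-4-high. Such intervals cover counting error only, since PCR reads without molecular identifiers are not independent molecules. VDAC2 made up 52.7% ± 1.82 and 54.7% ± 1.36 of the porin counts (exact permutation p = 0.3), and VDAC3 14.2% ± 2.48 and 16.1% ± 2.17 (exact permutation p = 0.4).

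**Figure D2:**
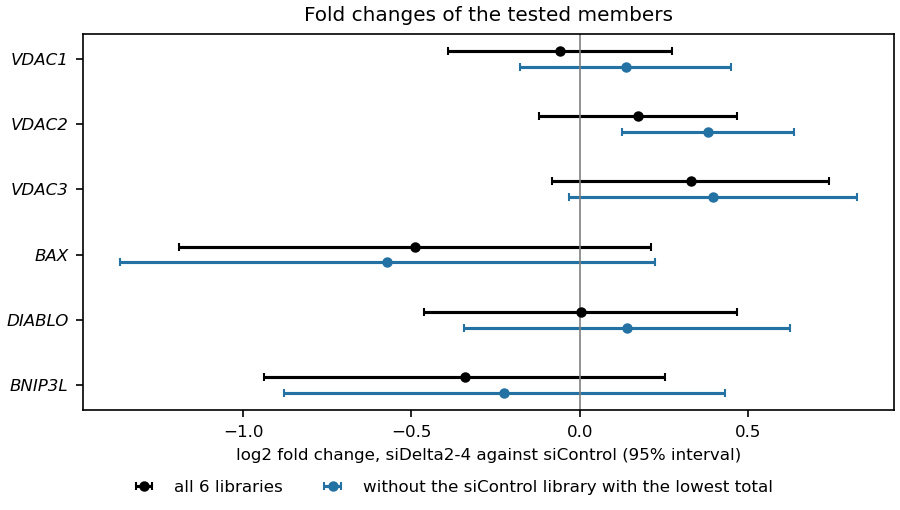
Log2 fold changes of the 6 tested members, siDelta2-4 against siControl, with 95% intervals from edgeR. Black points use all 6 libraries, where every interval includes 0. Blue points leave out siControl-low, where the interval of VDAC2 (0.127 to 0.638) lies above 0.

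Among the BCL-2 family members, the counts of the long reads were low. BAX (ENSG00000087088.21, chromosome 19, 48954815 to 48961798, plus strand), the pore former, was counted 16, 11 and 12 times in siControl and 10, 13 and 9 times in siDelta2-4. These were 15.4, 10.4 and 11.4 CPM in siControl and 9.25, 10.4 and 6.82 CPM in siDelta2-4. The groups did not overlap, but only by 0.0316 CPM, and groups that did not overlap were found for 1018 of 3888 tested genes (26.2%). The means were 12.4 ± 2.66 and 8.83 ± 1.83 CPM (SD, n = 3). The difference was -0.49 ± 0.342 on the log2 scale (SE, 95% interval -1.19 to 0.21, edgeR adjusted p = 0.413). At this depth the interval allows folds from 0.438 to 1.16, so a loss of more than 50% and a small gain are both within it.

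The anti-apoptotic members were at or near the limit of detection. BCL2L1 (ENSG00000171552.14, chromosome 20, 31664452 to 31723989, minus strand), which encodes BCL-XL, was counted 1, 1 and 2 times in siControl and 1, 1 and 0 times in siDelta2-4. MCL1 (ENSG00000143384.14, chromosome 1, 150560895 to 150579738, minus strand), a short-lived guardian against BAX and BAK, had 0 counts in all siControl libraries and 2, 1 and 2 in siDelta2-4. A floor of 3 counts over the siControl group was 0.931 CPM on summed totals, and the 5 counts of siDelta2-4 were 1.4 CPM. Their ratio of 1.51 takes the 5 counts as exact, so it is not a lower bound on the change. Every model in the table had a count in siDelta2-4, so the reverse pattern, with counts in siControl alone, could not be listed. MCL1 did not pass the filter on low counts. In the fit with no filter it had an unadjusted edgeR p of 0.0421 and an edgeR adjusted p of 0.377. Because of that limit on what could be listed, neither p-value is evidence for a rise. In that fit the edgeR adjusted p was 0.717 for BCL2L1 and 0.967 for HTRA2. MCL1-202 had 4 of the MCL1 counts and MCL1-203, with a retained intron, had 1. BCL2L1-201 had 4 counts and BCL2L1-210 had 2. The counted models of MCL1 were long (4070 nt on average), as were those of BCL2L1 (2787 nt), beside 890 nt for BAX. Whether length had a part in their low counts was not tested.

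DIABLO and HTRA2 encode proteins of the intermembrane space that bind inhibitors of apoptosis once released. DIABLO (ENSG00000184047.20, chromosome 12, 122207663 to 122227456, minus strand) had 26.1, 28.5 and 36.9 CPM in siControl and 35.1, 33.6 and 23.5 CPM in siDelta2-4, so that the groups covered almost the same range. The means were 30.5 ± 5.7 and 30.8 ± 6.33 CPM (SD, n = 3). The difference was 0.0031 ± 0.227 on the log2 scale (SE, 95% interval -0.46 to 0.47, edgeR adjusted p = 0.997). The interval allows folds from 0.726 to 1.38. The sign of this value turned under several settings. HTRA2 (ENSG00000115317.13, chromosome 2, 74529596 to 74533350, plus strand), a serine protease, had 1 count in each group. It overlaps AUP1 on the opposite strand by 165 bases. AUP1 was counted 14, 9 and 23 times in siControl and 16, 24 and 26 times in siDelta2-4 (log2 fold change 0.31 ± 0.314, edgeR adjusted p = 0.601). The counting was not stated to use strand, so reads from the shared bases alone cannot be told apart. Both HTRA2 counts were on HTRA2-201, an annotated model of 8 exons.

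Other overlaps at these loci carried few reads. LOXL3, also opposite HTRA2, and ENSG00000271737, opposite VDAC1, had 3 counts each, and ABALON, opposite BCL2L1, had 1. VDAC2, VDAC3 and BAX had no annotated gene overlapping them. A pair of annotated genes on the strand of DIABLO, ENSG00000284934 and ENSG00000256861, had no rows.

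The mitophagy receptor BNIP3L (ENSG00000104765.16, chromosome 8, 26383054 to 26505636, plus strand) had 17.4, 16.1 and 21.8 CPM in siControl and 12, 12.8 and 18.2 CPM in siDelta2-4. siDelta2-4-high lay above 2 of the siControl libraries, and the others lay below all of them. The means were 18.4 ± 2.96 and 14.3 ± 3.36 CPM (SD, n = 3). The difference was -0.34 ± 0.291 on the log2 scale (SE, 95% interval -0.94 to 0.25, edgeR adjusted p = 0.517). BNIP3 (ENSG00000176171.12, chromosome 10, 131967684 to 131981967, minus strand), its relative induced by low oxygen, had no row, so no level is given for it.

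The study's processing also assigned each long read to a transcript model, and the values below rest on that assignment. Of 6768 models tested, 468 were called (6.91%), and none of the 6 tested member models was among them. None of the 6 had an unadjusted p under 0.05, compared with 1213 of all tested models. In VDAC2, VDAC3, DIABLO and BNIP3L a single annotated protein-coding model held from 78.7% to 99.1% of the counts: VDAC2-203 had 894 of 952, VDAC3-201 had 223 of 267, DIABLO-207 had 163 of 207 and BNIP3L-201 had 110 of 111. Models outside the annotation were found for VDAC2 and VDAC3. VDAC2 had 28 and 26 counts on a pair of models that join known splice sites in other combinations, and VDAC3 had 42 counts on a model of 1369 nt that matches the 3′ part of a known transcript. Known models held 95% ± 1.97 and 94.0% ± 0.535 of the VDAC2 counts in siControl and siDelta2-4 (SD over 3 libraries, exact permutation p = 0.4). For VDAC3 they held 86.6% ± 3.7 and 82.6% ± 6.23 (exact permutation p = 0.4). All 6398 unannotated models in the table had at least 5 counts in every siDelta2-4 library, but only 5173 in every siControl library. This listing favours a lower known share in siDelta2-4, so neither test can separate a change in share from it. BAX-202, the model of the full-length alpha form, held 72.0% ± 20.6 and 74.2% ± 18.2 of the BAX counts (exact permutation p = 0.8), and BAX-206, with a retained intron, had 9 counts. DIABLO-207 held 80.2% ± 10.4 and 77.9% ± 12.7 of the DIABLO counts (exact permutation p = 0.9).

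VDAC1 divided its counts between models that differ outside the coding sequence. VDAC1-203 (1873 nt) had 412 counts and VDAC1-202 (1807 nt) had 106, and their coding sequences were equal. Their first exons had 196 and 96 bases, and their second exons began 3 bases apart, just before the start codon. The study's processing corrected small errors in the reads and at noncanonical splice junctions. How reliably reads were assigned between these 2 models was not tested. The 30 bases around this boundary (chr5:133993004-133993033, GRCh38, minus strand) are shown because the models part there, with capitals for the 3 bases that VDAC1-203 includes and VDAC1-202 leaves out.
VDAC1 exon 2 acceptor: attcttttatcatagCAGaagatggctgtg
The intron ends before the capitals in VDAC1-203 (exon 2 from 133993018) and after them in VDAC1-202 (exon 2 from 133993015). The start codon, at 133993012, follows 3 bases after the VDAC1-202 boundary.

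VDAC1-202 made up a larger share of VDAC1 in each siDelta2-4 library than in any siControl library. Its counts were 12, 11 and 16 in siControl, then 18, 23 and 26 in siDelta2-4, whereas VDAC1-203 had 63, 53 and 89 and then 61, 80 and 66. The share of VDAC1-202 in all VDAC1 counts was 15.4%, 15.7% and 14.4% in siControl and 22.2%, 20.9% and 26.8% in siDelta2-4. The groups did not overlap, at 15.2% ± 0.676 and 23.3% ± 3.09, a difference of 8.14 points (SD over 3 libraries, p = 0.1 in the exact permutation test, adjusted p = 0.375 over 15 shares). The share of VDAC1-203 was 78.9% ± 2.76 and 72.0% ± 3.68, again without overlap (exact permutation p = 0.1). Over the 1132 genes with usage tested, the share of the most counted model did not overlap between groups in 147 (13.0%). In edgeR's usage test VDAC1, the 1 member with at least 2 tested models, had a p of 0.0348 and an adjusted p of 0.448. In that fit 7 of 1132 genes were called (0.618%), and 109 (9.63%) had an unadjusted p under 0.05. Under the alternatives the unadjusted usage p of VDAC1 ranged from 0.0233 (at least 10 counts in every library) to 0.161 (no filter). It was 0.0666 without siControl-low and 0.132 without siDelta2-4-high. As single models, VDAC1-202 differed by 0.59 ± 0.293 on the log2 scale (SE, 95% interval -0.01 to 1.19, edgeR adjusted p = 0.287) and VDAC1-203 by -0.17 ± 0.187 (SE, 95% interval -0.55 to 0.22, edgeR adjusted p = 0.709). Neither passed the threshold.

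**Figure D3:**
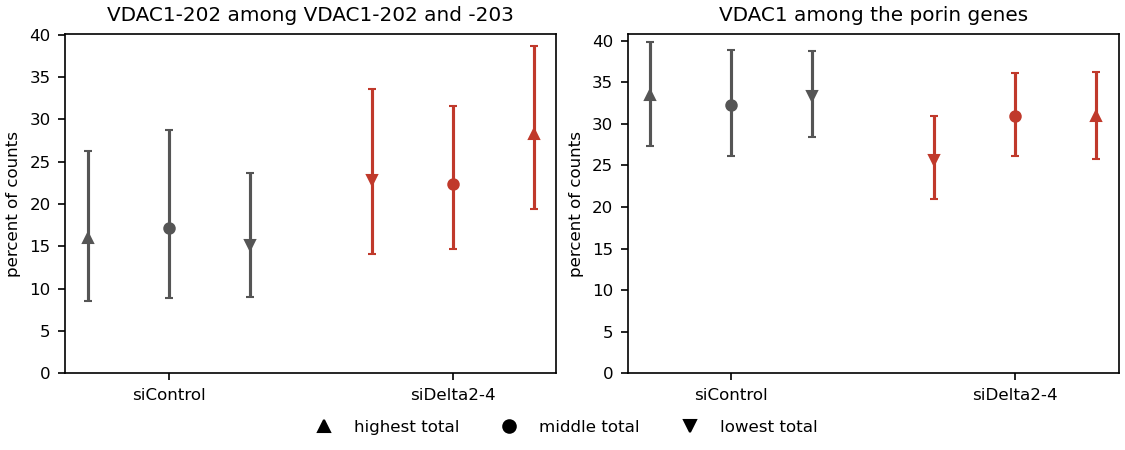
Left, VDAC1-202 as a percent of the counts of VDAC1-202 and VDAC1-203 in each library. Right, VDAC1 as a percent of the counts of the porin genes. Bars are exact 95% binomial intervals, which cover counting error only. The points of siControl (grey) and siDelta2-4 (red) do not overlap in either panel, with pooled values of 16.0% and 24.5% on the left and 33.1% and 29.3% on the right, while the intervals of single libraries overlap. Each panel has p = 0.1 in the exact permutation test, the smallest that 3 libraries against 3 allow.

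Other genes of these pathways were read from the same fit, by lists of known roles. Over all 7 lists 155 genes were named, 91 had rows, 40 were tested and 4 were called, 3 higher and 1 lower (10%), beside 13.0% of all tested genes. Their median log2 fold change was 0.023.

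Of 28 genes of the apoptosome, the caspases and the inhibitors of apoptosis, 16 had rows and 4 were tested, and 1 was called. CYCS, which encodes cytochrome c (ENSG00000172115.9, chromosome 7, 25118656 to 25125260, minus strand), rose in siDelta2-4. It had 410, 382 and 426 CPM in siControl and 576, 595 and 511 CPM in siDelta2-4, with no overlap. The means were 406 ± 22.5 and 561 ± 44.2 CPM (SD, n = 3), and the log2 fold change was 0.47 ± 0.092 (SE), with a 95% interval of 0.28 to 0.66 (edgeR adjusted p = 0.00185). With the trend on length removed it was 0.30 (edgeR adjusted p = 0.03). The study itself had picked CYCS from these libraries, so this value was not independent evidence. The other tested genes were DIABLO, BIRC5 (log2 fold change 0.32, adjusted p = 0.318), which encodes survivin, and DFFA (0.35, adjusted p = 0.504), which encodes the inhibitor of the caspase-activated nuclease. BIRC5 and DFFA were named after their values were seen. The 12 genes with rows that were not tested had at most 56 counts over all libraries.

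Of 21 genes of the BCL-2 family, 10 had rows and 2 were tested, BAX and PMAIP1. For PMAIP1, which encodes the BH3-only protein NOXA, the value was 0.18 ± 0.339 on the log2 scale (SE, edgeR adjusted p = 0.799). The other 8 had at most 33 counts, so the balance of pro- and anti-apoptotic family members could not be read at this depth.

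Of 30 genes of outer membrane channels, protein import, fission and fusion, 21 had rows and 17 were tested, with 1 called higher and 1 lower and a median log2 fold change of -0.001. Both called genes encode subunits of the TOM complex, the entry gate for imported proteins. TOMM5 (ENSG00000175768.13, chromosome 9, 37582646 to 37592604, minus strand) had 361, 340 and 302 CPM in siControl and 203, 223 and 200 CPM in siDelta2-4. It fell from a mean of 334 ± 29.9 CPM to 209 ± 12.2 CPM (SD, n = 3), by a log2 fold change of -0.68 ± 0.104 (SE, 95% interval -0.89 to -0.46, edgeR adjusted p = 0.000137). TOMM22 (ENSG00000100216.6, chromosome 22, 38681957 to 38685421, plus strand), the receptor subunit to which BAX can bind, had 72.4, 62.7 and 69.1 CPM in siControl and 86.9, 103 and 98.5 CPM in siDelta2-4. It rose from a mean of 68.1 ± 4.95 CPM to 96.3 ± 8.45 CPM, by a log2 fold change of 0.51 ± 0.144 (SE, 95% interval 0.21 to 0.80, edgeR adjusted p = 0.028). This call was lost with the trend on transcript length removed (0.33, adjusted p = 0.134), in DESeq2 (0.45, adjusted p = 0.121), without siControl-mid (0.45, adjusted p = 0.142) and without siDelta2-4-mid (0.45, adjusted p = 0.133).

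Of 25 mitophagy receptors and regulators, 15 had rows and 8 were tested, and none was called. The largest values were those of PHB2, an inner membrane receptor (log2 fold change -0.35, adjusted p = 0.414), BNIP3L, and PINK1, the kinase that marks damaged mitochondria (0.28, adjusted p = 0.36). Without siControl-low, PINK1 was called at 0.49 (edgeR adjusted p = 0.0361). Of 15 partners of the porins at the inner membrane and in the cytosol, 4 were tested and none was called. The log2 fold change of SLC25A5, an ADP/ATP carrier, was 0.14 (adjusted p = 0.38), that of SLC25A3, the phosphate carrier, 0.07 (adjusted p = 0.766), and ITPR3, a calcium channel of the endoplasmic reticulum, -0.04 (adjusted p = 0.882). SLC25A5 was called without the same library (0.21, edgeR adjusted p = 0.0718).

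Of 20 targets of p53 in cell death and arrest, 8 had rows and 3 were tested: BAX, PMAIP1 and PERP. PERP (ENSG00000112378.12, chromosome 6, 138088505 to 138107419, minus strand), a membrane protein of desmosomes that also acts in p53-dependent apoptosis, was counted 10, 11 and 12 times in siControl and 27, 34 and 24 times in siDelta2-4, with no overlap. It rose from a mean of 10.5 ± 0.855 CPM to 23.5 ± 4.71 CPM (SD, n = 3), by a log2 fold change of 1.15 ± 0.297 (SE, 95% interval 0.54 to 1.76, edgeR adjusted p = 0.0156). The call was lost without siDelta2-4-mid (1.02, adjusted p = 0.111).

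**Figure D4:**
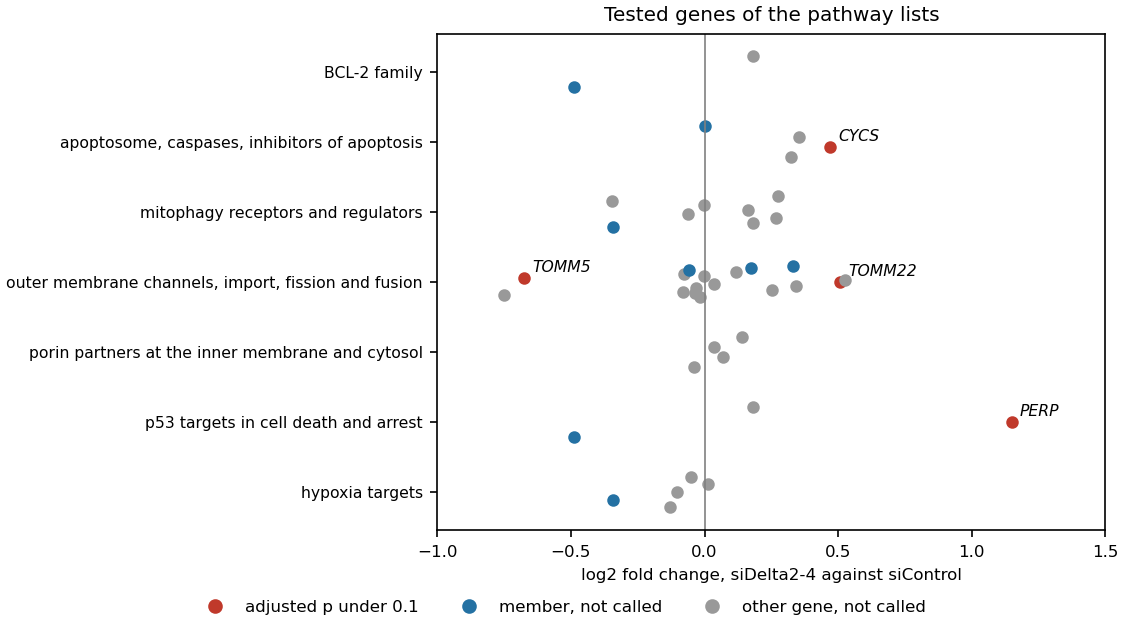
Log2 fold changes of the tested genes of each pathway list, siDelta2-4 against siControl, with 1 point per gene and small vertical offsets for legibility. Red points are the 4 genes called at an adjusted p under 0.1 (CYCS, TOMM5, TOMM22 and PERP), blue points the members that were not called, and grey points other genes that were not called. A gene in more than 1 list is drawn in each. The members lie between -0.49 (BAX) and 0.33 (VDAC3).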

How the data were processed

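Calu-6 libraries of 2 groups, 3 siControl and 3 siDelta2-4, were analysed. The authors deposited long-read counts for each transcript model, which were not normalised. As stated in the labels or the study's methods, reads of PCR-cDNA libraries were aligned to GRCh38.p14 with minimap2 2.14 and handled with SAMtools 1.13. Small indels, mismatches and noncanonical splice junctions were corrected with TranscriptClean. Reads were annotated by TALON against Gencode 44, and unannotated models were kept with at least 5 reads in 3 samples. Of 6398 unannotated models in the table, all reached that minimum in every siDelta2-4 library and 5173 in every siControl library. Each of the 6 count columns was assigned to its group by the siRNA it named, and 0 were left out. The names also carried the word for the empty vector, which the methods of the study give for these cells, whereas the labels gave a wild-type genotype. Other columns gave model lengths and exon numbers.

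Counts were summed per gene and fitted in R 4.3.3 by edgeR 4.0.16 (after filterByExpr, TMM, quasi-likelihood fit with no covariate, two-sided, Benjamini-Hochberg over all genes, called at an adjusted p under 0.1). Models were tested likewise, and usage with diffSpliceDGE. Coordinates and overlaps came from Gencode 44 by versioned identifier (8168 of 8168 annotated genes), and sequences from GRCh38. CPM per kb used the mean length of the counted models. The scripts were tested on simulated data. The named genes were all members, the called genes of each pathway list or otherwise its 3 largest changes, overlapping opposite-strand genes and pseudogenes with counts, and models with at least 10% of a member's counts. From the list of porin partners, 1 gene with copies on both sex chromosomes was left out. The members and lists were chosen with earlier results of these data known. Alternatives were DESeq2 1.42.0, other scalings and filters, an adjusted p under 0.05, a length trend removed (loess span 0.4), known models alone, a block on the column number and each library left out.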

Additional observations from a re-analysis of the deposited data

How the results depend on the processing

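Few reads per gene and 3 libraries a group limit these results: BAX had at most 16 counts in a library, BCL2L1, MCL1 and HTRA2 were tested only with no filter, without a call, and BNIP3 had no value. BAX, BNIP3L and VDAC3 kept their direction and stayed uncalled under every alternative that gave a value, with ranges over the libraries left out of -0.635 to -0.325, -0.561 to -0.224 and 0.167 to 0.427. BAX had no value with a minimum of 10 counts in every library, and DESeq2 gave no adjusted p for BAX, BNIP3L, DIABLO and VDAC3. The count of genes called over the table, 504, became 304 at an adjusted p under 0.05, 279 with DESeq2, 252 on known models alone and 194 to 1041 with 1 library left out, the highest without siControl-low and the lowest without siDelta2-4-mid. Leaving out 1 library gave 0 to 1 members called, 0 to 1 member models called and 2 to 7 pathway list genes called, and DESeq2 gave 2 list genes (CYCS and TOMM5). VDAC2 ranged from 0.028 without siControl-mid to 0.382 without siControl-low. The cause was not tested.

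The log2 fold change of DIABLO, 0.003, turned to -0.023 with DESeq2 size factors, -0.012 with no filter, -0.154 with the length trend removed and -0.028 on known models alone. With 1 library left out it ranged from -0.116 to 0.172, and it was negative without siControl-high, siControl-mid (-0.048), siDelta2-4-low (-0.101) or siDelta2-4-mid (-0.076). That of VDAC1, -0.058, turned to 0.009 with library totals alone, and ranged from -0.194 to 0.137 with 1 library left out, the highest without siControl-low. The causes were not tested. The median log2 fold change over all tested genes was 0.027, and became 0.163 in DESeq2 and 0.192 with no filter.

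The labels numbered barcodes and gave no pairing. The deviations of same-numbered columns correlated at 0.039, -0.136 and -0.0843. These values gave no sign of pairing, but with 3 libraries a group they cannot exclude it. A replicate block on the column number gave 299 genes called over the table, 0 members called, 4 pathway list genes called, 0 member models called, 0 members with changed usage and a median of -0.023 over the members.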

Other observations

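Of 22 genes induced by low oxygen, the setting in which BNIP3 and BNIP3L are best known, 14 had rows and 5 were tested, and none was called. Their median log2 fold change was -0.102, with 1 higher and 4 lower. BNIP3L had the largest value (-0.34). The glycolytic genes ALDOA and ENO1 followed at -0.13 (edgeR adjusted p = 0.487) and -0.10 (edgeR adjusted p = 0.557).

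CYB5B, an outer membrane cytochrome of the channel and import list, was chosen after its values were seen. It had 14.5, 14.2 and 17 CPM in siControl and 4.62, 8.01 and 13.6 CPM in siDelta2-4, with no overlap, and its log2 fold change of -0.75 ± 0.349 (SE) did not pass the adjusted test (edgeR adjusted p = 0.189).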
